A study of Mus musculus with 6 samples.

Results

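The genes described here carry signals from G protein-coupled receptors into the cell: the subunits of heterotrimeric G proteins, the RGS regulators, the phospholipase C enzymes, the inositol trisphosphate receptors and the protein kinase C family. They were chosen by gene symbol, from probe sets that the platform annotation gives a single symbol, with the brightest probe set standing for each gene. That gave 70 genes of the 19938 measured: 12 G alpha, 6 G beta, 10 G gamma, 22 RGS, 9 phospholipase C, 3 inositol trisphosphate receptor and 8 protein kinase C genes by name. The symbol pattern also took in 4 genes that are no member of the family they are named after. These are Gnb1l, a WD repeat protein, Itpr3os, a transcript opposite Itpr3, and Rgs7bp and Rgs9bp, which anchor RGS proteins at membranes. Gnas and Itpr1 had no probe set with a single symbol and were not analysed here.

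An activated receptor makes a G alpha subunit release GDP, bind GTP and part from its G beta and G gamma partners. Subunits of the Gq family then switch on phospholipase C beta, which splits a membrane phosphoinositide into diacylglycerol, an activator of most protein kinase C enzymes, and inositol trisphosphate, which opens calcium channels of the endoplasmic reticulum. RGS proteins end the signal by speeding GTP hydrolysis on the alpha subunit. In type II alveolar epithelial cells, which make and secrete pulmonary surfactant, calcium and protein kinase C are known triggers of secretion.

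Messenger RNA was measured on 6 Affymetrix arrays, each with RNA pooled from the type II cells of 3 mice aged 8 weeks and lysed 2 hours after isolation by collagenase and differential plating. In 3 pools the mice combined the transgenes SP-C-rtTA and (tetO)7CMV-Cre with the floxed allele Gpr116flx/flx, which is meant to delete the adhesion receptor Gpr116 where the surfactant protein C promoter drives the doxycycline-dependent activator. The 3 control pools carried SP-C-rtTA and (tetO)7CMV-Cre alone, so Cre was common to both groups and the floxed allele was not. The comparison asks how loss of Gpr116 changes transcripts in these cells, here those of the G protein and phospholipase C pathway. Values are log2 expression, so a difference of 1 is a doubling, and errors of differences are standard errors.

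The arrays of both groups were bright for type II markers, whose mean over 10 genes lay between 12.2 and 12.3 on every array. The Gpr116 probe set, now named Adgrf5, was higher, not lower, on the arrays labelled knockout (11.78 to 11.89 against 11.49 to 11.53, a difference of 0.34 ± 0.05, limma adjusted p = 0.0119). Whether its probes fall inside the floxed part could not be determined here, so this probe set checks nothing about the genotype, and every direction below rests on the labels. All 14 ciliated cell markers were lower on the arrays labelled knockout, with a mean of 8.89, 8.47 and 8.27 on knockout 1, 2 and 3 and 9.57, 9.53 and 9.57 on the control arrays. All 7 T cell markers were highest on knockout 1, as were the 5 proliferation markers, of which 4 were called higher (mean difference 0.86). Of 5 club cell markers 2 were lower, Scgb3a2 (-0.96) and Cyp2f2 (-0.29), and of 7 endothelial markers Kdr (-1.18) was lower and Pecam1 (0.45) higher. Single markers called higher were Lamp3 (0.32) of type II cells, Ager (0.22) of type I cells and Retnlg (0.58) of neutrophils. The mean of 2 red cell markers was 11.35 on knockout 1 and 9.005 to 10.285 on the other arrays, without a call. The part of these cells in the results below was not tested. Knockout 2 and control 1 were male pools by Xist and Y-linked genes and the other 4 were female. An unexplained number in the array titles was 9, 9 and 11 for the knockout pools and 8, 8 and 10 for the control pools; if it marks a batch, batch and group cannot be told apart.

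Few of the 70 genes differed between the groups. On the arrays labelled knockout 2 were higher, Gnai3 and Rgs5, and 5 were lower, Rgs22, Gna14, Rgs11, Gnaz and Prkcz, at a limma adjusted p under 0.05 over all genes. The 7 make 10% of the members, beside 8.49% of all genes tested, and the 2 higher and 5 lower stand beside 3.36% and 5.13% of all genes, so the share was near the background. The groups did not overlap in 20 of the 70 genes, or 28.6% against 27.6% of all genes. All knockout arrays lay above in 10 and below in 10, beside 14.8% and 12.8% of all genes. An unadjusted p under 0.05 was reached by 15 members, 21.4% against 22.1%. The median difference of the members was 0.01 and their median absolute difference 0.07, against 0.003 and 0.083 over all genes. Without knockout 1, 2 were higher and 8 lower, and without knockout 2, 3 and 7. Without knockout 3 or control 1, 0 were higher and 2 lower, and without control 2 or control 3, 0 and 3. In these 4 fits the share of all genes called was 2.30% to 4.57%, and 12 or 13 members had an unadjusted p under 0.05.

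**Figure D1:**
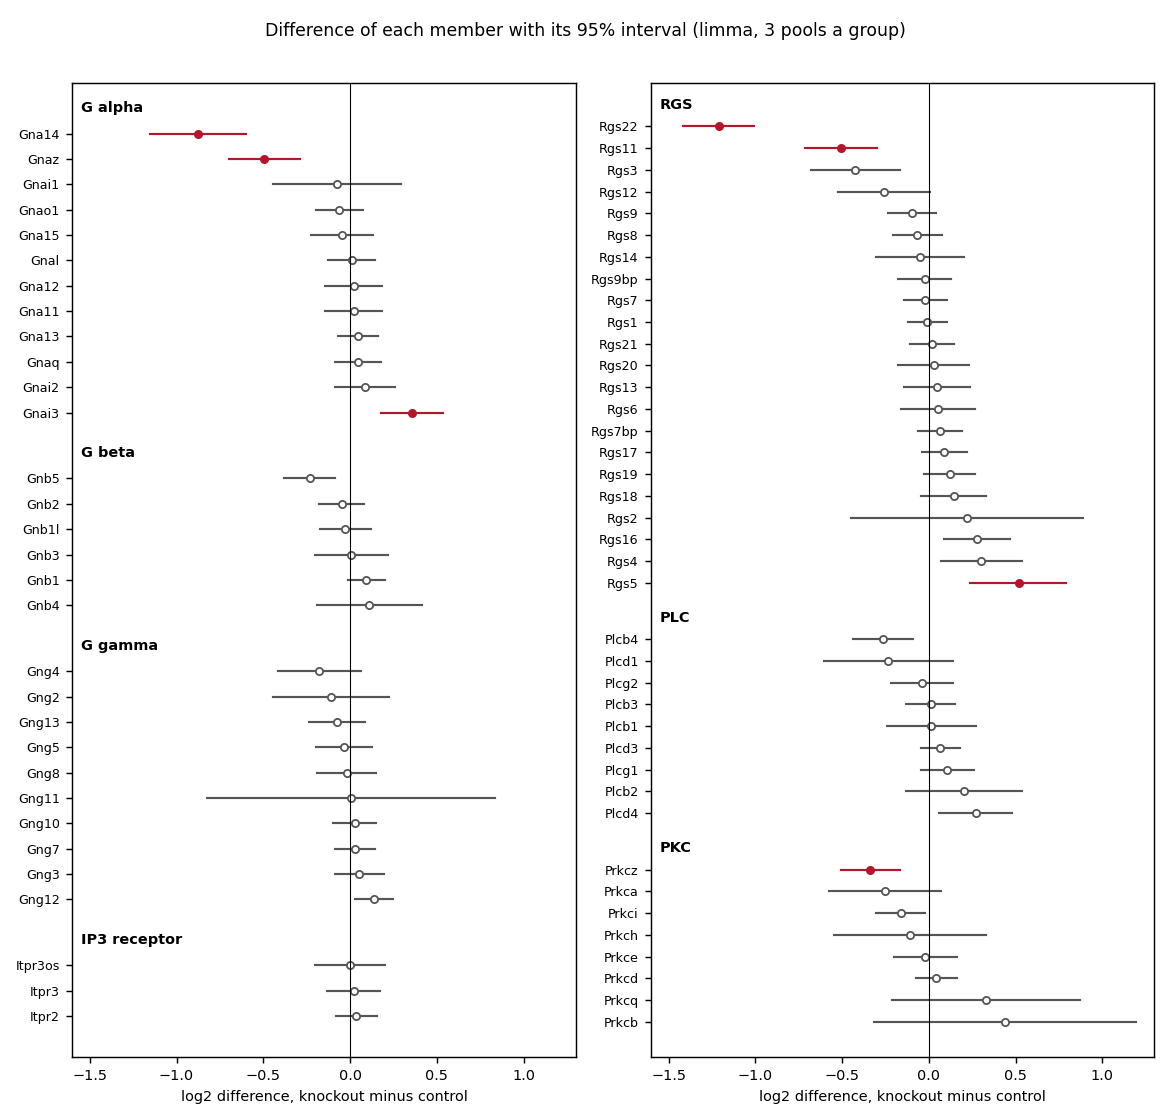
Difference between groups for each of the 70 genes, by role. Points are the knockout minus control difference in log2 units, bars the 95% interval from limma (3 pools a group), and filled red points the 7 genes with an adjusted p under 0.05. Most points lie near 0, with Rgs22 and Gna14 farthest below it.

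An absolute difference of at least 0.5 was seen in 4 members, Rgs22, Gna14, Rgs11 and Rgs5 (5.71%, against 5.20% of all genes). Another 16 lay from 0.2 to 0.5, and 50 lay under 0.2 (71.4%, against 80.2% of all genes). The 16 took in genes whose groups overlapped, such as Prkcb, Prkcq, Plcb2 and Rgs2, each set apart by 1 knockout array. Others of the 16 had groups that did not overlap, among them the called genes Gnai3, Gnaz and Prkcz. The larger share of middling differences therefore mixes genes of both kinds. How many of all genes in that range overlapped between groups was not counted.

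**Figure D2:**
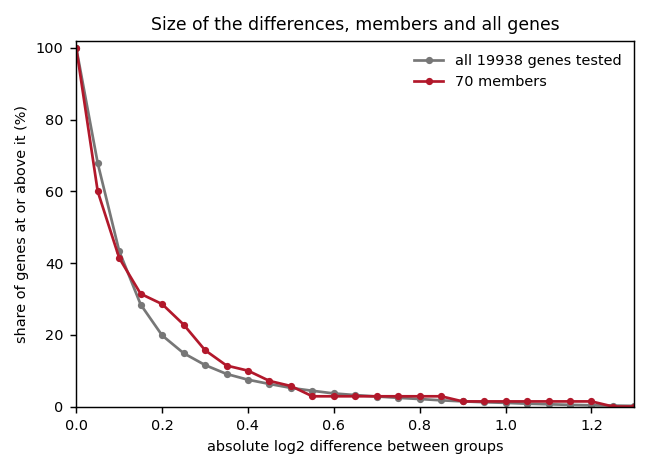
Share of genes (y axis, in %) whose absolute log2 difference between groups is at or above the value on the x axis, for the 70 members (red) and for all 19938 genes tested (grey). At 0.5 the lines read 5.71% and 5.20%, and the members lie higher in the middle of the range, at 28.6% against 19.8% at 0.2 and 22.9% against 14.9% at 0.25. Some members in that range overlap between groups.

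Among the 12 G alpha genes 2 fell, 1 rose and 9 did not pass. Gna14, a Gq family subunit found in few tissues, read 7.19, 6.86 and 6.81 on knockout 1, 2 and 3 and 7.99, 7.76 and 7.74 on control 1, 2 and 3. Every knockout array lay below every control array, and knockout 1 was the highest of its group. The difference was -0.88 ± 0.12 (n = 3 per group, 1.84-fold lower; limma adjusted p = 0.00746), and the call held in all 14 alternatives tried, with adjusted p of up to 0.0404. The order of knockout 1, 2 and 3 in Gna14 was that of their ciliated marker means. Some members whose groups overlapped, such as Gna15, Rgs14 and Rgs20, had the same order, as did Rgs4, which was higher on the knockout arrays. The share of all genes with this order was not counted, so the order is given as a description only. The part of ciliated cells in the Gna14 difference was not tested. In RNA from a cell preparation, fewer cells of a type and less RNA per cell cannot be told apart.

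The other Gq family genes measured did not follow Gna14. Gnaq, the widely expressed founder of the family, read 10.07, 10.03 and 10.05 on knockout 1, 2 and 3 and 10.05, 10.04 and 9.92 on the control arrays. The values overlapped, with a difference of 0.05 ± 0.06 and a 95% interval of -0.09 to 0.18 that leaves out a fall as large as that of Gna14 (interval -1.15 to -0.60). Gna11, its close relative, stood at 0.02 ± 0.07, and Gna15, known from blood cells, at -0.05 ± 0.08, with overlapping groups (adjusted p = 0.916 and 0.796).

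Gna14 and Gnaq are neighbours among the protein-coding genes of the mouse RefSeq annotation (GRCm38.p6), so their upstream sequences are shown together: one gene fell and the other did not. The next sequences are the 250 bases before each RefSeq start site, written 5′ to 3′ on the strand of the gene, for Gna14 (chr19:16435417-16435666, plus strand) and Gnaq (chr19:16132434-16132683, plus strand). Capitals mark matches on either strand to 3 motifs that do not overlap here: the GC box GGGCGG, the CCAAT box CCAAT and the E-box CACGTG.
Gna14: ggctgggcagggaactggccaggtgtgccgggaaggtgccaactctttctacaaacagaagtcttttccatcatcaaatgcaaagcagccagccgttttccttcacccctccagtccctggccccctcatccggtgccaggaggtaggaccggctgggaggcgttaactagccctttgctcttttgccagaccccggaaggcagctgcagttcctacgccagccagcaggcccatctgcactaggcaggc
Gnaq: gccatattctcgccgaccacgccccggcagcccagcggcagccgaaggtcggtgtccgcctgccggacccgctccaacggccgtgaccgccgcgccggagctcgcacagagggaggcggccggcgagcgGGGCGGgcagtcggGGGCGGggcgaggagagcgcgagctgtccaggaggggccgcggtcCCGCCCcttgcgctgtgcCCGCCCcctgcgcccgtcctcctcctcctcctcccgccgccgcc
The window before Gnaq held 4 GC boxes, 2 on each strand, whose first letters lie 121, 107, 62 and 44 bases before the start. None of the 3 motifs occurred in the window before Gna14, which says only that these letters are not in those bases. Of all 32851 promoter windows of that length in the table, 32.7% held a GC box, 33.8% a CCAAT box and 6.02% an E-box. A match is a description of the letters and not a site of binding.

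The remaining G alpha calls were in the Gi family, whose subunits inhibit adenylyl cyclase. Gnaz, a member that resists pertussis toxin, read 7.10, 6.88 and 6.83 on knockout 1, 2 and 3 and 7.47, 7.33 and 7.49 on the control arrays. All knockout values lay below all control values, again with knockout 1 the highest of its group. The difference was -0.49 ± 0.09 (adjusted p = 0.0173, limma). The call was lost without knockout 3, control 1, control 2 or control 3 (adjusted p of 0.0505 to 0.0868).

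Gnai3, a widely expressed Gi subunit, read 10.07, 9.89 and 10.14 on knockout 1, 2 and 3 and 9.73, 9.67 and 9.63 on the control arrays. The groups did not overlap, and knockout 2 lay closest to the controls. The gene was 1.28-fold higher, with a log2 difference of 0.36 ± 0.08 (limma adjusted p = 0.0328). It was called without knockout 2 and lost its call without any other array (adjusted p of 0.0602 to 0.134), with the sex of the pool as a term (0.0532) and with all probe sets tested (0.0707). Its relatives Gnai2 (0.09 ± 0.07, adjusted p = 0.575) and Gnai1 (-0.08 ± 0.16, adjusted p = 0.842) did not pass, and Gnai1 spread from 8.14 to 8.82 within the knockout arrays. Gnao1, abundant in neurons, and Gnal, the olfactory stimulatory subunit, differed by -0.06 ± 0.06 and 0.01 ± 0.06. Gna12 and Gna13, which form a family of their own, differed by 0.02 ± 0.07 and 0.05 ± 0.05, all 4 with overlapping groups.

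The upstream windows of the called members Gnai3 (chr3:108146153-108146402, minus strand) and Rgs5 (chr1:169655251-169655500, plus strand), a RGS gene described below, are given in the same form because they are the genes that rose.
Gnai3: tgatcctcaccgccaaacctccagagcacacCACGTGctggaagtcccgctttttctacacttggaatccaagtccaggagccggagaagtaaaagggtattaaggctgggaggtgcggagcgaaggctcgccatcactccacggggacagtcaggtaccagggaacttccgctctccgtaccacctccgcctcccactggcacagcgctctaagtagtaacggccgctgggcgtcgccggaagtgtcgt
Rgs5: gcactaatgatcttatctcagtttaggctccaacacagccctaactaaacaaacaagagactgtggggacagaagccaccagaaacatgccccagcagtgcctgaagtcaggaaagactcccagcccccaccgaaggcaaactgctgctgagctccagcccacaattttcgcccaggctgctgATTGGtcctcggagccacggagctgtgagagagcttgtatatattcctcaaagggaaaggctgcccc
Gnai3 held an E-box, whose first letter lies 219 bases before the start, and Rgs5 a CCAAT box on the opposite strand, 67 bases before it. Neither motif was common to both.

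**Figure D3:**
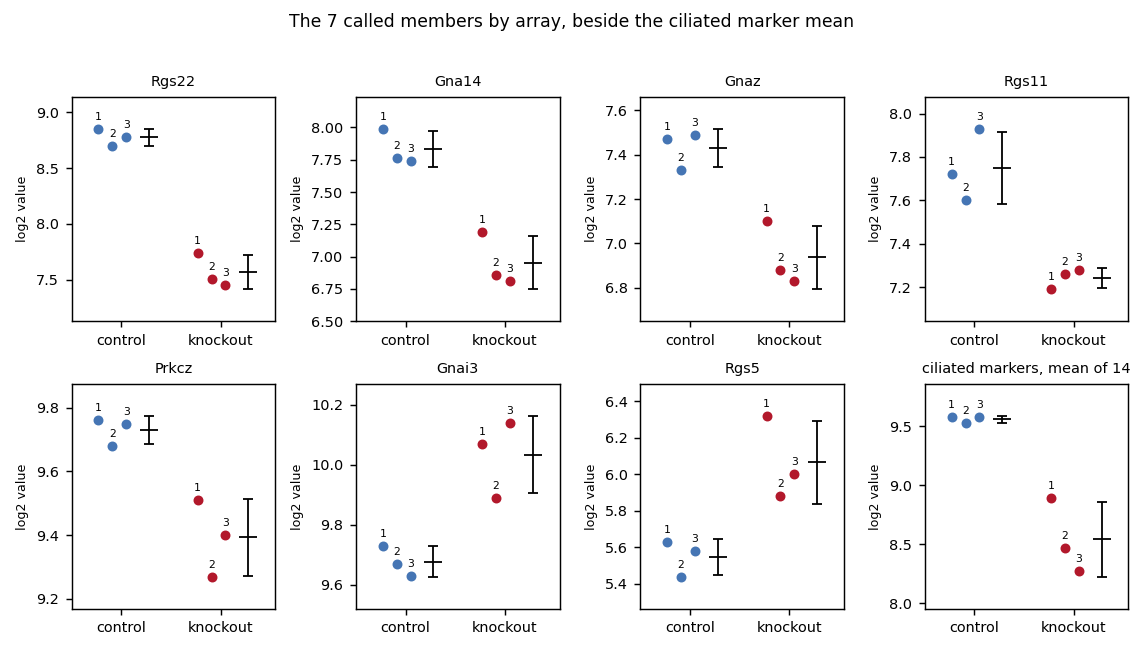
Log2 value on each array (points, numbered by replicate) with the mean and SD of the 3 pools (bar) for the 7 called members and, last, the mean of 14 ciliated cell markers. Each panel has its own y axis that does not start at 0. The 2 groups do not overlap in any panel, and in Rgs22, Gna14 and Gnaz the arrays labelled knockout stand in the order of the ciliated mean, with knockout 1 highest. Members whose groups overlap, such as Gna15 and Rgs14, also have this order.

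None of the 6 G beta and 10 G gamma genes passed the limma threshold, and 1 of each had an unadjusted p under 0.05. Gnb5, the G beta that pairs with RGS proteins of the R7 family in place of a G gamma, read 7.10, 7.17 and 7.29 on knockout 1, 2 and 3 and 7.39, 7.41 and 7.46 on the control arrays. The groups did not overlap, with a difference of -0.23 ± 0.06 and an adjusted p of 0.0735. It passed in 1 alternative, with only genes at or above the median level (adjusted p = 0.0485). Gnb1, a common G beta, read 12.28 on each knockout array and 12.17 to 12.20 on the control arrays, so the groups parted by little (0.09 ± 0.05, adjusted p = 0.295). Gnb2 (-0.05 ± 0.06), Gnb3 (0.01 ± 0.09), Gnb4 (0.11 ± 0.13) and Gnb1l (-0.03 ± 0.06) overlapped between groups.

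Gng12, a G gamma found in many non-neuronal cells, read 11.40, 11.42 and 11.42 on knockout 1, 2 and 3 and 11.28, 11.29 and 11.26 on the control arrays. The groups were apart and tight, with a difference of 0.14 ± 0.05 that did not pass (limma adjusted p = 0.134, and 0.0646 to 0.325 over the alternatives). Gng4, chosen by its p, differed by -0.18 ± 0.10 (adjusted p = 0.382), with overlapping groups. The other 8 G gamma genes lay between -0.11 and 0.05, and all of them overlapped between groups.

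The RGS genes held the largest difference of the 70. Of 22 by name 2 fell, 1 rose and 19 did not pass. Rgs22, a large RGS protein known from testis and from cells with motile cilia, read 7.74, 7.51 and 7.45 on knockout 1, 2 and 3 and 8.85, 8.70 and 8.78 on the control arrays. Every knockout array lay well below every control array. The difference was -1.21 ± 0.09 (2.31-fold lower; limma adjusted p = 0.00291). It kept its call in all 14 alternatives, with adjusted p of 0.000335 to 0.0274. Its arrays labelled knockout stood in the order of the ciliated marker mean given above, an order not limited to genes that fell. The part of ciliated cells in the Rgs22 fall was not tested.

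Rgs11 belongs to the R7 family, whose members need Gnb5 for stability. It read 7.19, 7.26 and 7.28 on knockout 1, 2 and 3 and 7.72, 7.60 and 7.93 on the control arrays. The groups did not overlap, and here knockout 1 was the lowest of its group, the reverse of the ciliated order. The difference was -0.51 ± 0.09 (1.42-fold lower; limma adjusted p = 0.0171), lost without knockout 3 (adjusted p = 0.0528) or control 1 (0.0672). The other R7 genes, Rgs9 (-0.10 ± 0.06), Rgs7 (-0.02 ± 0.05) and Rgs6 (0.05 ± 0.09), overlapped between groups, as did the anchors Rgs7bp (0.06 ± 0.05) and Rgs9bp (-0.02 ± 0.07).

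Rgs5, a small RGS protein best known as a marker of pericytes, was the called member that rose most. It read 6.32, 5.88 and 6.0 on knockout 1, 2 and 3 and 5.63, 5.44 and 5.58 on the control arrays, without overlap. These values lay below 6.79, the median of all probe set means, so the fit of genes at or above that level left Rgs5 out. The difference was 0.52 ± 0.12 (1.43-fold higher; limma adjusted p = 0.0409). The call was lost without knockout 3, control 1, control 2 or control 3 (adjusted p of 0.0970 to 0.158), with the sex of the pool as a term (0.0674) and with all probe sets tested (0.0874). Of 9 fibroblast and mural cell markers 0 were called by limma and 2 had an unadjusted p under 0.05. Their mean was 9.43, 9.72 and 9.29 on knockout 1, 2 and 3 and 9.57, 9.40 and 9.29 on the control arrays. The mural genes among them, Acta2 (0.42 ± 0.16), Myh11 (0.48 ± 0.20), Cspg4 (0.17 ± 0.09) and Pdgfrb (0.21 ± 0.13), had positive differences without a call. Of the fibroblast genes Pdgfra (-0.42 ± 0.45), Dcn (-0.35 ± 0.26), Col1a2 (-0.07 ± 0.16) and Col1a1 (-0.02 ± 0.15) had negative and Col3a1 (0.13 ± 0.16) positive differences. The grouping into mural and fibroblast genes was made after the values were seen, and their part in the Rgs5 difference was not tested.

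Rgs4, the close relative and neighbour of Rgs5, read 5.96, 5.81 and 5.77 on knockout 1, 2 and 3 and 5.71, 5.56 and 5.36 on the control arrays. The groups parted by a narrow gap, and the difference of 0.30 ± 0.10 did not pass (adjusted p = 0.126). In the fit that has replicate numbers as blocks it did (0.0485). Rgs16, an inducible small RGS protein, read 7.45, 7.17 and 7.29 on knockout 1, 2 and 3 and 7.10, 6.97 and 7.01 on the control arrays, all knockout values above. Its difference of 0.28 ± 0.08 did not pass (adjusted p = 0.0934) but did without knockout 2 (0.0389) and with array weights (0.0438).

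Rgs3, which has long forms with added interaction domains, read 7.74, 7.50 and 7.30 on knockout 1, 2 and 3 and 7.99, 7.88 and 7.94 on the control arrays. All knockout values were lower, in the ciliated order that overlapping genes such as Rgs14 and Rgs20 also had. The difference of Rgs3 was -0.42 ± 0.11 (limma adjusted p = 0.0616). It passed in 4 of 14 alternatives, among them the replicate block (adjusted p = 0.0479) and the fit without knockout 1 (0.00739). Rgs12, a multidomain RGS protein, was also lower on every knockout array at 7.15, 6.92 and 6.68 against 7.16 to 7.19, and did not pass (-0.26 ± 0.11, adjusted p = 0.235) except without knockout 1 (0.0338). Of the remaining genes Rgs19 (0.12 ± 0.06) and Rgs17 (0.09 ± 0.05) were higher on every knockout array without passing, and Rgs8, Rgs14 and Rgs20 lay between -0.07 and 0.03 with overlapping groups. The blood cell genes Rgs1, Rgs13 and Rgs18 read between 3.62 and 4.07 on every array and overlapped between groups.

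Of the 9 phospholipase C genes none passed by limma, and 2 had an unadjusted p under 0.05. Plcb4, one of the beta isoforms that Gq subunits activate, read 8.15, 8.34 and 8.08 on knockout 1, 2 and 3 and 8.46, 8.45 and 8.45 on the control arrays. All knockout values were lower and more spread than the controls, with a difference of -0.26 ± 0.07 (limma adjusted p = 0.0812). It passed without knockout 2 (0.0179) and with array weights (0.0275). The neighbouring gene Plcb1 (0.01 ± 0.11) and the epithelial isoform Plcb3 (0.01 ± 0.06, adjusted p = 0.954) overlapped between groups.

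Plcd4, a delta isoform, read 6.62, 6.93 and 6.83 on knockout 1, 2 and 3 and 6.46, 6.50 and 6.61 on the control arrays. The knockout values lay above the controls, by 0.01 at the closest, and the difference of 0.27 ± 0.09 did not pass (adjusted p = 0.129) except without knockout 1 (0.0255). Plcd1 spread from 7.28 to 7.91 within the knockout arrays (-0.23 ± 0.16, adjusted p = 0.466) and was called lower without knockout 2 (-0.43 ± 0.07, 0.0167), and Plcd3 differed by 0.07 ± 0.05 (0.495). Plcg1, which tyrosine kinases activate, differed by 0.11 ± 0.07 and the blood cell isoform Plcg2 by -0.04 ± 0.08. The inositol trisphosphate receptors measured, Itpr2 (0.04 ± 0.05, adjusted p = 0.752) and Itpr3 (0.02 ± 0.07, adjusted p = 0.909), overlapped between groups, with 95% intervals of -0.08 to 0.16 and -0.13 to 0.17. Itpr3os differed by 0.00 ± 0.09.

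Among the 8 protein kinase C genes 1 fell and 7 did not pass. Prkcz, an atypical kinase that answers to neither diacylglycerol nor calcium and takes part in cell polarity, read 9.51, 9.27 and 9.40 on knockout 1, 2 and 3 and 9.76, 9.68 and 9.75 on the control arrays. On the probe set used, the groups did not overlap, and the difference was -0.34 ± 0.07 (1.26-fold lower, limma adjusted p = 0.0334). A second Prkcz probe set overlapped between groups and did not pass (-0.20 ± 0.09, limma adjusted p = 0.335 over all probe sets). Leaving out knockout 3, control 1, control 2 or control 3 ended the call (adjusted p of 0.0963 to 0.1315), as did fits with the sex of the pool as a term (0.0530), with all probe sets tested (0.0719) and with the mean of its probe sets (-0.27 ± 0.08, 0.0844). Prkci, the other atypical kinase, read 10.69, 10.57 and 10.66 on knockout 1, 2 and 3 and 10.88, 10.75 and 10.78 on the control arrays. It was lower on every knockout array without passing (-0.16 ± 0.06, limma adjusted p = 0.169).

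With all 6 arrays no call was seen among the isoforms that diacylglycerol activates. Prkcd differed by 0.04 ± 0.05 and Prkce by -0.02 ± 0.08, with overlapping groups. Prkca, a conventional isoform, read 8.48, 9.02 and 8.82 on knockout 1, 2 and 3 and 8.90, 9.09 and 9.09 on the control arrays, with knockout 1 the lowest (-0.25 ± 0.14, adjusted p = 0.345).

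Several members stood apart on 1 array rather than between groups. The arrays labelled knockout spanned at least 0.5 in 10 of the 70 genes (14.3%, against 8.40% of all genes), and the control arrays in 1, Gng11 (1.43%, against 0.953%). The genes in this paragraph and the next were chosen after their values were seen. Prkcb, a conventional isoform abundant in lymphocytes and myeloid cells, read 7.16 on knockout 1 and 5.83 to 5.93 on the other 5 arrays. Prkcq, the isoform of T cell receptor signalling, read 6.09 on knockout 1 and 5.07 to 5.42 elsewhere. Prkch, also expressed in T cells, read 6.25 on knockout 1, 5.67 and 5.45 on knockout 2 and 3 and 5.88 to 5.93 on the controls, and without knockout 1 it was called lower (-0.34 ± 0.08, limma adjusted p = 0.0425). Plcb2, the blood cell phospholipase C beta, read 6.41 on knockout 1 and 5.78 to 5.94 elsewhere. All 4 were highest on knockout 1 and had wide errors between groups (adjusted p of 0.476 to 0.805). The mean of the 7 T cell markers was 6.24 on knockout 1 and 5.33 to 5.50 on the other arrays, with Cd8a at 7.75 against 6.07 to 6.18 and Cd3g at 6.80 against 5.03 to 5.24. The part of T cells in these values was not tested.

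Knockout 2 stood apart for other members. Rgs2, an inducible RGS protein selective for Gq, read 9.59 there and 8.38 to 8.74 on the other 5 arrays, and its group difference was 0.22 ± 0.28 (limma adjusted p = 0.735). Gng11, a G gamma common in mesenchymal and endothelial cells, read 7.11 on knockout 2 and 5.87 and 5.89 on knockout 1 and 3. It was as low on control 1 (5.86) and stood at 6.50 and 6.49 on control 2 and 3. Knockout 2 and control 1 were the male pools, so Gng11 was highest on 1 male pool and lowest on the other. The mean of the 9 fibroblast and mural markers was highest on knockout 2, at 9.72, and next on control 1, at 9.57, where Gng11 was lowest. Of these markers 5 were highest on knockout 2, 3 on knockout 1 and 1 on control 1. Of 7 endothelial markers 1 was highest on knockout 2. The part of these cells in the values of Rgs2 and Gng11 was not tested.

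**Figure D4:**
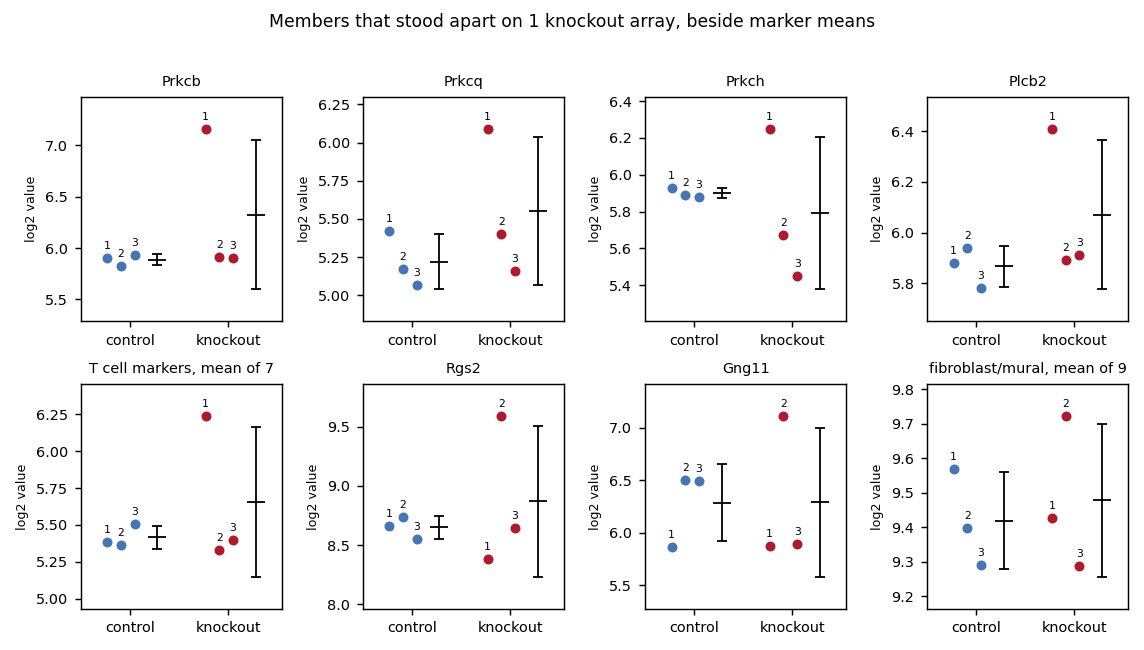
Log2 value on each array (points, numbered by replicate) with the mean and SD of 3 pools (bar) for 4 members high on knockout 1, the mean of 7 T cell markers, Rgs2, Gng11 and the mean of 9 fibroblast and mural markers. Each panel has its own y axis that does not start at 0. Prkcb, Prkcq, Prkch, Plcb2 and the T cell mean are highest on knockout 1, and Rgs2 and Gng11 on knockout 2.

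Of 10 neighbouring pairs of members among protein-coding genes in GRCm38.p6, 2 held a called gene, Gnaq with Gna14 and Rgs5 with Rgs4, and in each the neighbour did not pass. With replicate numbers as blocks both Rgs5 and Rgs4 passed (adjusted p = 0.0181 and 0.0485). The 5 neighbours Rgs2, Rgs13, Rgs1, Rgs21 and Rgs18 on chromosome 1 lay between -0.01 and 0.22 with 0 calls by limma and 0 with an unadjusted p under 0.05. The neighbours Gna15 and Gna11 on chromosome 10 differed by -0.05 and 0.02.

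Pathway genes outside the 70 were taken from a list of 80 measured genes that act beside them. Of these 1 rose, 7 fell and 72 did not pass (10%, against 8.49% of all genes), with a median difference of 0.01. The falls included both eta isoforms of phospholipase C. Plch1 read 7.17, 6.86 and 6.89 on knockout 1, 2 and 3 and 7.67, 7.59 and 7.64 on the control arrays (-0.66 ± 0.09, limma adjusted p = 0.00757). Plch2 was lower on every knockout array, at 7.42 to 7.65 against 7.87 to 7.89 (-0.36 ± 0.07, adjusted p = 0.0228). Of 8 phospholipase C genes outside the 70, the other 6 did not pass.

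Kinases that phosphorylate inositol trisphosphate, and so end its action on calcium channels, also fell. Itpka read 7.29, 7.03 and 6.60 on knockout 1, 2 and 3 and 7.76, 7.64 and 7.67 on the control arrays (-0.72 ± 0.16, limma adjusted p = 0.0396). Itpkb read 8.59, 8.43 and 8.36 against 9.08, 9.03 and 8.88 (-0.54 ± 0.08, adjusted p = 0.0113), while Itpkc did not pass (-0.11 ± 0.07, adjusted p = 0.427). All 3 falls of Plch2, Itpka and Itpkb put the arrays labelled knockout in the ciliated order. Genes without a call also had this order, and it was not tested further. The Itpka call ended on leaving out knockout 2 or a control array (adjusted p up to 0.137), that of Plch2 on leaving out knockout 3 or a control array (up to 0.0989) and that of Itpkb on leaving out control 1 or control 2 (up to 0.0619). The Itpka call also ended with the sex of the pool as a term (0.0666), and those of Itpka (0.0861) and Plch2 (0.0507) with all probe sets tested.

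The other calls reported were single genes of other steps. Pip5k1b, a kinase that makes the phosphoinositide substrate of phospholipase C, rose, reading 10.61, 10.59 and 10.91 on knockout 1, 2 and 3 and 10.19 to 10.21 on the control arrays (0.50 ± 0.09, limma adjusted p = 0.0191). On leaving out a control array the call ended (adjusted p up to 0.0872). The diacylglycerol kinase Dgkh fell by 0.26 ± 0.06 and the endoplasmic reticulum calcium sensor Stim1 by 0.30 ± 0.07 (adjusted p = 0.0418 and 0.0439). Dgkh kept its call only on leaving out knockout 2, and Stim1 only on leaving out knockout 1 (adjusted p up to 0.158 and 0.149 without the others). Both calls also ended with the sex of the pool as a term (0.0666 and 0.0767) and with all probe sets tested (0.0841 and 0.0892). In the fit with replicate numbers as blocks 1 gene of the list rose and 4 fell, and the calls that ended included Dgkh and Stim1 (adjusted p = 0.0752 and 0.0943). Without control 2, 0 rose and 1 fell, and without control 1 or control 3, 0 and 2. Without knockout 3, 1 rose and 3 fell, without knockout 1, 3 and 7, and without knockout 2, 2 and 6.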

How the data were processed

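The authors deposited log2 expression values. Their tools, per the submitters' processing notes, were RMA and Affymetrix Expression Console 1.1. RMA removes background, gives all arrays the same distribution and summarises each probe set, so a change common to most genes would be removed before deposit. Array medians were 6.77 to 6.81. Precision is limited by having 3 arrays a group. The genome build of the array design was not given in the sources used here.

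Of 35556 probe sets 21789 had 1 symbol in the platform annotation, 1621 several and 12146 none. By Entrez identifier 21698 matched a RefSeq table, and 0 symbols changed. Of the members 4 had several probe sets, of which the one with the highest mean was used. Promoter windows came from RefSeq (GRCm38.p6), which held one for 55 of the 70 members.

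Knockout was compared with control on 3 arrays each with limma 3.58.1 (R 4.3.3; eBayes after lmFit, two-sided, Benjamini-Hochberg over 19938 genes, threshold 0.05), without filter, weights or block. The fit was first tested on simulated data. Named in full were members with an adjusted or unadjusted p under 0.05, the Gq family, Gnai2, the inositol trisphosphate receptors, the best 2 of each role by p, and called pathway genes, of which 1 is counted but not reported here. The members and lists were chosen with earlier results of these data known.

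The titles number the pools 1 to 3 in each group, and the labels do not say what the numbers mark. Pools with the same number deviated together from their group means, with correlations of 0.192, 0.103 and 0.111 over the genes tested. These lie above the 0.1 used as a limit for treating them as pairs, 2 of them by little, so the pairing comes from the values alone. By Xist, numbers 1 and 2 each join a female with a male pool, so sex does not follow the numbers. Although the correlations pass that limit, the main results come from the fit without a block. The fit with replicate numbers as blocks is given as an alternative. The choice changes some calls: with blocks Rgs3 and Rgs4 also passed, and calls of pathway genes such as Dgkh and Stim1 ended.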

Additional observations from a re-analysis of the deposited data

How the results depend on the processing

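The counts rest on few arrays. Leaving out each array in turn gave 0 to 3 members higher and 2 to 8 lower, 144 to 835 of all genes higher and 301 to 1265 lower, and 0 to 3 pathway partners higher and 1 to 7 lower. With all probe sets tested 0 members and 414 of all probe sets were higher, and 2 partners were lower. With the sex of the pool as a term 0 members were higher, and 2 partners were higher and 3 lower. With genes at or above the median level 1 of 40 members tested was higher and 2 partners were. Array weights, and eBayes with trend and robust, each gave 2 partners higher. In the replicate block fit 3 members were higher and 6 lower, since Rgs3 and Rgs4 then passed, and 4 partners were lower. The block ended 3 partner calls, Dgkh and Stim1 among them, and, beside Rgs3 and Rgs4, changed no other call of a gene named in the text. Counts not given here stayed within 1.5 times those of the report.

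For the 31 genes of the naming rule, the unreported one included, 6 of 430 differences changed sign, all of genes without a call. Gna11 read -0.024 with array weights and -0.02 to 0.08 with an array left out, Gna15 -0.102 to 0.01 and Itpr3 -0.015 to 0.08. Of the rest 348 kept their direction and side of the threshold, 65 lost a call and 11 gained one. Of the other members 3 gained a call with 1 array left out, namely Prkch, Rgs12 and Plcd1. Rgs22 and Gna14 were called in all 14 alternatives, Rgs11 in 12, Gnaz in 10, Gnai3 and Prkcz in 7 and Rgs5 in 7 of the 13 that tested it. Of the 70 members 30 had a mean below the median of all probe sets.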

Other observations

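A second probe set was present for 4 members, with differences taken here from a fit over all probe sets. That of Rgs3 read 6.85, 6.66 and 6.61 on knockout 1, 2 and 3 and 6.99, 6.89 and 6.92 on the control arrays, a difference of -0.23 ± 0.08. The second probe set of Prkcz gave -0.20 ± 0.09 with overlapping groups and did not pass (limma adjusted p = 0.335). The 2 probe sets of Gnb1l gave -0.03 ± 0.06 and 0.03 ± 0.07. Those of Prkch differed in sign, at -0.11 ± 0.20 and 0.13 ± 0.09, and both were highest on knockout 1.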
